A study of Mus musculus with 7 samples.

Results

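Astrocytes, microglia and cells of the oligodendrocyte lineage were followed through 33 of their marker genes in RNA of the ventrolateral ventromedial hypothalamus (VMHvl), a site of estrogen action in the brain, of female mice with and without estrogen. The genes were chosen by symbol, as textbook markers of the 3 glial types, and all 33 were found among the 48321 genes of the count tables. They comprised 12 astrocyte genes, 10 microglial genes, 8 genes of myelinating oligodendrocytes, and Sox10, Pdgfra and Vcan, which mark the oligodendrocyte lineage and its precursor cells. All 33 passed the filter on low counts and were among the 18387 genes tested.

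The treated group was 4 ovariectomized female mice given 1 µg of estradiol benzoate (EB), an ester of estradiol, under the skin. The control group was 3 ovariectomized female mice given the vehicle, and in both groups the VMHvl was cut out by hand 4 hours after the injection. Every library held RNA of a single mouse, so the spread within a group is one between animals. It includes differences of dissection and library, which cannot be told apart from those of the animals. The colony had a mixed background of 129/Sv ancestry and descended from a line with floxed Esr1, the gene of estrogen receptor alpha. The sources used here give neither the Esr1 genotype of each mouse nor the ages, and all mice lacked ovaries, so the vehicle mice are a low-estrogen state and not an intact cycle. The numbers that name the mice (EB 1 to 4 and vehicle 1 to 3) follow the order of the samples and pair nothing.

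Astrocytes clear glutamate and potassium around synapses, share ions and metabolites through gap junctions, and wrap vessels with end-feet that carry water channels. Microglia are the resident macrophages of the brain, surveying synapses with processes that follow extracellular nucleotides and supplying the first component of complement. Oligodendrocytes arise from precursor cells that divide throughout life, and they insulate axons with myelin. In the hypothalamus, estradiol is known to reshape astrocyte processes over neurons, and estrogen receptors have been reported in glia as well as in neurons.

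Library totals ran from 21037303 to 33302293 counts. Mitochondrial ribosomal RNA took 7.27 to 19.8% of the counts in EB mice and 26.1, 9.92 and 7.88% in vehicle 1 to 3. The response to the hormone was present: Pgr, the progesterone receptor gene and a classical estrogen target, averaged 207.5 ± 17.6 CPM in EB mice and 82.2 ± 6.70 CPM in vehicle mice (SD, n = 4 and 3; CPM are counts scaled to library size after TMM normalisation). Of the genes that locate the dissection, Esr1 averaged 192 ± 30.2 CPM in EB mice and 223 ± 81.6 CPM in vehicle mice. Nr5a1, which defines the ventromedial nucleus, was low at 2.52 ± 1.11 CPM in EB mice and 2.03 ± 1.02 CPM in vehicle mice. Slc17a6, a further check gene, averaged 633 ± 55.6 CPM in EB mice and 500 ± 61.3 CPM in vehicle mice. All EB mice lay above all vehicle mice in it (log2 0.34, adjusted p = 0.111 by edgeR), and the groups did not overlap in 9.10% of all tested genes. Summed neuronal markers stood at 8708 to 9775 CPM in EB mice and 9017 to 9819 CPM in vehicle mice.

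No glial marker passed the test 4 hours after EB. With edgeR's quasi-likelihood test and Benjamini-Hochberg adjustment over all tested genes, 0 of 33 were called at an adjusted p under 0.05, while 175 of all tested genes (0.952%) were. At an unadjusted p under 0.05 the count was 1 of 33 members, against 9.04% of all tested genes. The gene was P2ry12 of microglia. DESeq2 called P2ry12 and no other member, 1 of 33, at a rate of 1.95% over all genes, and limma-voom called 0, or 0 when samples were weighted. The weighted fit gave 6 of 33 an unadjusted p under 0.05, 5 of them astrocyte genes, against 9.68% of all tested genes. The 2 groups of mice did not overlap in 1 of 33 members, again P2ry12, against 9.10% of all tested genes.

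The estimates were small and mostly on the lower side. The log2 change of EB over vehicle was negative in 27 of 33 members, with a median of −0.09, against 9481 negative and 8906 positive estimates and a median of −0.01 over all tested genes. Scaling by library totals alone left 23 of 33 negative. By class, 11 of 12 astrocyte genes were negative with a median of −0.13, 7 of 10 microglial genes with a median of −0.16, and 9 of 11 genes of the oligodendrocyte lineage with a median of −0.04. In bulk tissue, fewer cells of a type and less RNA per cell cannot be told apart. The precision of the estimates sets how far the absence of calls reaches. For 25 of 33 members (75.8%) the whole 95% interval of the change lay within 1.5-fold in either direction, and for 31 of 33 (93.9%) within 2-fold. Over all tested genes those shares were 49.0% and 67.5%. The 2 members with wider intervals were Gfap and Trem2. The comparison with all genes was not matched for expression level, and several members were abundant. In mean CPM, Slc1a2 lay above 99.96% of tested genes, Mbp above 97.7% and Trem2, the lowest member, above 28.8%.

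**Figure D1:**
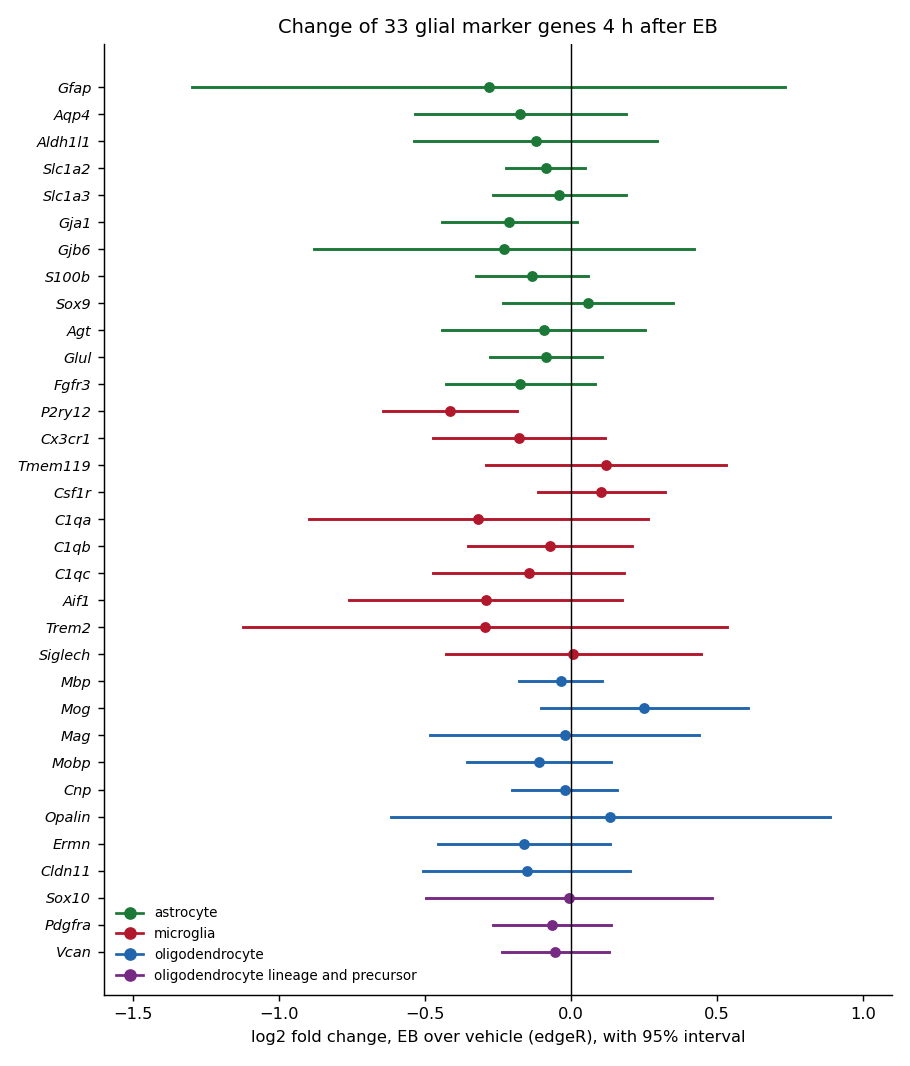
Log2 fold change of each of the 33 marker genes, EB over vehicle, from edgeR (points) with its 95% interval (lines), coloured by cell class; n = 4 EB and 3 vehicle mice. The interval of P2ry12 alone lies wholly on 1 side of 0, at −0.64 to −0.18, and Gfap has a wide interval, from −1.30 to 0.73.

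Genes were compared with each other per kilobase of exon, where the level of the 33 spanned from 1.18 to 354.5 CPM per kb over all 7 mice. The length used was the union of all annotated exons of a gene. It can exceed the length of the transcripts present, which lowers the value, so the ranks are approximate. Slc1a2, the main glutamate transporter of astrocytes, was highest at 345.2 CPM per kb in EB mice and 367 in vehicle mice. Glul, glutamine synthetase, followed at 169 CPM per kb over all mice, then Slc1a3, the other astrocytic glutamate transporter, at 147.9. The next 6 genes, S100b, Gja1, Agt, Aqp4, Gjb6 and Gfap, were also astrocytic, lay between 43.8 and 56.9 CPM per kb, and overlapped from mouse to mouse. The myelin genes Mbp (40.0 CPM per kb) and Cnp (33.9) came after them, and the highest microglial genes were C1qb (15.7) and P2ry12 (14.5). Opalin, a membrane protein of myelin, was lowest at 1.18 CPM per kb.

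**Figure D2:**
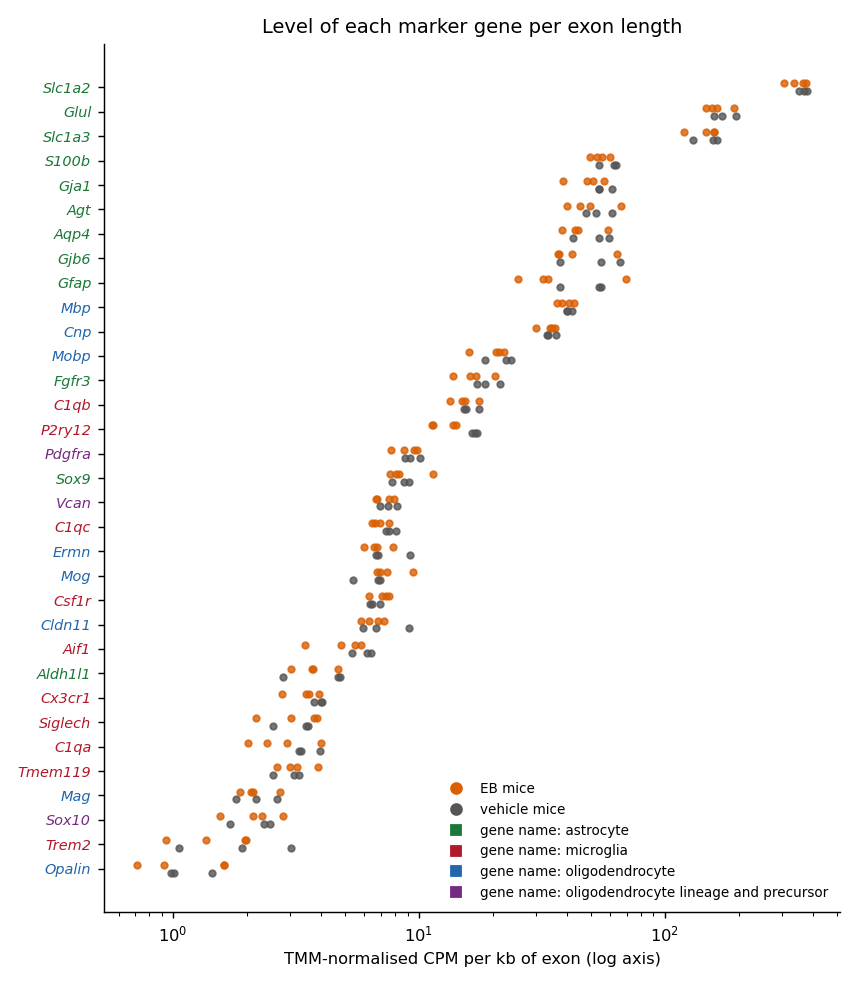
Level of each marker gene in TMM-normalised CPM per kb of exon (log axis), with a point for each EB mouse (upper) and each vehicle mouse (lower); gene names are coloured by cell class. Astrocyte genes fill the upper end, led by Slc1a2 at 354.5, and Opalin is lowest at 1.18; in most rows the spread between mice is small beside the distance between genes.

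P2ry12 encodes the receptor for ADP with which microglial processes find sites of nucleotide release, and it is a marker of homeostatic microglia. It lies on chromosome 3 (GRCm38, chr3:59216272-59262871, minus strand), inside a gene on the other strand, Med12l, with which it shares no exon sequence. P2ry12 was at 33.6, 34.7, 27.8 and 27.7 CPM in EB 1 to 4, against 41.5, 42.1 and 40.3 CPM in vehicle 1 to 3. All 4 EB mice lay below all 3 vehicle mice, and the vehicle mice were close together. The means were 30.9 ± 3.72 CPM in EB mice and 41.3 ± 0.877 CPM in vehicle mice (SD), a log2 change of −0.41 ± 0.11 (SE; 95% interval −0.64 to −0.18) or a fold of 0.750. The adjusted p of edgeR's quasi-likelihood test was 0.125, and 264 of the tested genes (1.44%) had a smaller p. DESeq2 gave an adjusted p of 0.0169 with the same size of change (log2 −0.42), so the call depends on the tool, and over all settings tried the adjusted p ran from 0.0169 to 0.551. Med12l was at 98.2 ± 8.67 CPM in EB mice and 100.9 ± 8.07 CPM in vehicle mice.

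The sequence before the start of P2ry12 is shown since it is the member nearest to the threshold. The estrogen receptor binds an inverted repeat of the half-site GGTCA with 3 bases between the copies, and capitals mark every GGTCA or its complement TGACC. The sequence holds 1 half-site, 163 bases upstream of the RefSeq transcript start (GRCm38.p6, chr3:59262986-59263235, minus strand, written 5′ to 3′).
P2ry12: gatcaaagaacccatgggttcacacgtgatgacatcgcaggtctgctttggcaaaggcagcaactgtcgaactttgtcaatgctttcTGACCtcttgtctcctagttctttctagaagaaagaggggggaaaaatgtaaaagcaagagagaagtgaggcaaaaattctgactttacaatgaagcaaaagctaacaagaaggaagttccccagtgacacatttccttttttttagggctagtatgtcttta

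The other homeostatic microglial genes did not share the separation seen in P2ry12. Cx3cr1, the receptor for the neuronal chemokine fractalkine, was at 17.7, 15.7, 16.1 and 12.6 CPM in EB 1 to 4, against 18.1, 16.8 and 18.0 CPM in vehicle 1 to 3 (log2 −0.18, 95% interval −0.47 to 0.11). EB 4 was lowest, and EB 1 lay between the vehicle mice. Csf1r, the growth factor receptor on which microglia depend for survival, was at 36.8, 34.6, 30.6 and 36.01 CPM in EB mice, against 31.4, 34.0 and 30.9 CPM in vehicle mice (log2 0.10, interval −0.11 to 0.32). Its highest value was in EB 1 and its lowest in EB 3, and reads of 17.9% of its exon length could also belong to Hmgxb3 on the other strand. Tmem119, a membrane protein of brain-resident microglia, was at 7.19, 8.72, 5.94 and 6.71 CPM in EB mice, against 6.96, 5.70 and 7.27 CPM in vehicle mice (log2 0.12, interval −0.29 to 0.53). Siglech, a sialic acid-binding lectin, averaged 10.5 CPM in both groups (SD 2.57 in EB mice and 1.80 in vehicle mice). Of these 4 genes, 1 estimate was negative and 3 were positive, and that of Siglech (0.01) changed sign with 1 library left out. Those 3 were the only positive estimates among the microglial members, of which 7 of 10 were negative. In the wider list of other homeostatic microglial genes 18 of 24 were negative, against 51.6% of all tested genes.

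The ratio of P2ry12 to Csf1r, each per kb of exon, was 1.83, 2.002, 1.82 and 1.54 in EB 1 to 4, against 2.64, 2.47 and 2.61 in vehicle 1 to 3. The ratio to Cx3cr1 was 3.496, 4.07, 3.18 and 4.07 in EB mice, against 4.22, 4.61 and 4.14 in vehicle mice. Neither ratio overlapped between the groups, but P2ry12 on its own already separated them. For Cx3cr1 the margin was narrow, at 4.07 in EB 2 and EB 4 against 4.14 in vehicle 3. The share of such ratios without overlap over all genes was not computed. These ratios were looked at after the values of P2ry12 were known and are a description.

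**Figure D3:**
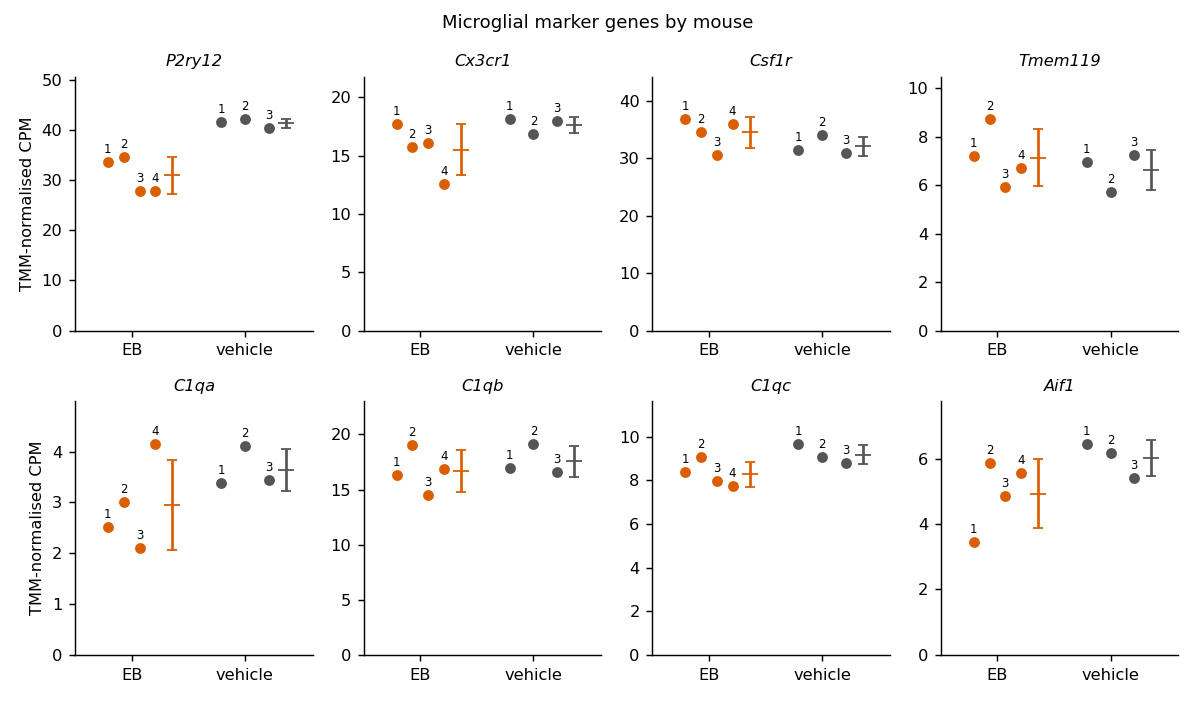
TMM-normalised CPM of 8 microglial marker genes in each EB mouse (left) and vehicle mouse (right), numbered by mouse, with the mean and SD of each group. P2ry12 separates the groups, at 27.7 to 34.7 in EB mice and 40.3 to 42.1 in vehicle mice, whereas the other 7 genes overlap.

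C1qa, C1qb and C1qc encode the 3 chains of C1q, which starts the classical complement pathway and tags synapses for removal by microglia. The genes are neighbours on the minus strand of chromosome 4 (GRCm38, chr4:136880129-136886187 for C1qb, chr4:136889804-136893065 for C1qc and chr4:136895917-136898803 for C1qa). C1qb was at 16.3, 19.1, 14.5 and 16.8 CPM in EB 1 to 4, against 16.9, 19.2 and 16.6 CPM in vehicle 1 to 3 (log2 −0.07, interval −0.36 to 0.21). C1qc was at 8.36, 9.06, 7.96 and 7.74 CPM in EB mice, against 9.68, 9.06 and 8.81 CPM in vehicle mice (log2 −0.15, interval −0.47 to 0.18). C1qa was at 2.52, 3.02, 2.11 and 4.16 CPM in EB mice, against 3.38, 4.12 and 3.43 CPM in vehicle mice (log2 −0.32, interval −0.90 to 0.26). The groups overlapped in all 3 genes, and EB 4 was highest in C1qa and lowest in C1qc.

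The sequences before C1qb (GRCm38.p6, chr4:136886201-136886450, minus strand) and C1qc (chr4:136892915-136893164, minus strand) are shown because the pair lies within the same gene cluster and each holds 2 half-sites in its promoter. In C1qb they begin 108 and 4 bases upstream of the start, the nearer of which runs over the end of the stretch shown and is left in lower case. In C1qc they begin 174 and 129 bases upstream.
C1qb: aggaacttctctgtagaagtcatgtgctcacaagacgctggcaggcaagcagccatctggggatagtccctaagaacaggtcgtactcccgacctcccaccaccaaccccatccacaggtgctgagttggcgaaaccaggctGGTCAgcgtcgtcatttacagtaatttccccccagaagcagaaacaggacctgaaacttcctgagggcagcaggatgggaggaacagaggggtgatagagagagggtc
C1qc: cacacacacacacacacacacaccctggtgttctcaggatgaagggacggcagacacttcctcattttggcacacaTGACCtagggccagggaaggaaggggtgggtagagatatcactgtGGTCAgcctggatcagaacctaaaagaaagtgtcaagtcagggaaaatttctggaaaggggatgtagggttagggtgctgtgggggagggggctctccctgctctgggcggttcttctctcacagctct

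Aif1, which encodes the actin-binding protein IBA1 used to stain microglia, averaged 4.93 ± 1.07 CPM in EB mice and 6.02 ± 0.537 CPM in vehicle mice (log2 −0.29, interval −0.76 to 0.17). Trem2, a lipid receptor of microglia, was among the least abundant members, at 2.25, 2.25, 1.56 and 1.07 CPM in EB 1 to 4, against 1.21, 2.19 and 3.43 CPM in vehicle 1 to 3. Its counts lay between 26 and 78 per library, and its estimate of −0.29 turned to 0.08 without vehicle 3. Summed over the 10 microglial genes, the level was 140.9, 145.3, 121.3 and 125.4 CPM in EB mice, against 147.0, 151 and 142.5 CPM in vehicle mice, with EB 2 above vehicle 3. This sum includes P2ry12, which made up most of the distance between the groups. The sum averaged 133.2 CPM in EB mice and 146.8 CPM in vehicle mice, and P2ry12 alone 30.9 and 41.3 CPM. The median change of the class, −0.16, was −0.10 without EB 4.

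Gfap, the intermediate filament of astrocytes and tanycytes, varied most among the astrocyte genes. It was at 136.9, 129.9, 103.2 and 283.4 CPM in EB 1 to 4, against 223.7, 152.9 and 219.4 CPM in vehicle 1 to 3. EB 1, EB 2 and EB 3 lay below every vehicle mouse and EB 4 lay above them all. The log2 change was −0.28 ± 0.40 (SE; interval −1.30 to 0.73) over all mice and −0.69 without EB 4, with an adjusted p of 0.920 and 0.136 by edgeR, the second being the lowest of any setting tried and 0.9998 the highest. It was −0.44 without vehicle 2 and −0.12 without EB 3. The 13 listed tanycyte and ependymal markers summed to 89.5, 91.5, 103 and 187.7 CPM in EB 1 to 4. In vehicle 1 to 3 their sum was 131.8, 94.8 and 113.3 CPM. As in Gfap, EB 4 was highest in 6 of the 10 of these markers that were tested, and in 4 of 4 tested pituitary markers. For Pomc, among these pituitary markers, EB 4 was close to EB 1 (37.0 and 35.8 CPM), and another 5 of the 9 listed failed the filter. The part of tanycytes, ependymal cells and pituitary tissue in the Gfap values was not tested.

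The sequence before the RefSeq start of Gfap (GRCm38.p6, chr11:102897201-102897450, minus strand) is given as that of the member with the widest spread among astrocyte genes, and its 2 half-sites begin 169 and 85 bases upstream.
Gfap: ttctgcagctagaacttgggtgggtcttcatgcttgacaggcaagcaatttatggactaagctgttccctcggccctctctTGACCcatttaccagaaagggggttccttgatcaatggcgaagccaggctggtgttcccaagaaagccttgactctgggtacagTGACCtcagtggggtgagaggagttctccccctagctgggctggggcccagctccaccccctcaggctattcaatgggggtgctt
RefSeq promoters of 26 of the 33 members were at hand, 29 promoters in all, each from 250 bases before to 50 after a start. Promoters were not matched for Aqp4, Sox9, Tmem119, Csf1r, C1qa, Mbp and Sox10. At least 1 half-site on either strand was found in 18 of the 29, against 40.5% of 32851 promoters of the same length. The full element was found in 0 of 29 and in 0.07% of all promoters. A match to 5 letters is a description of the sequence and not a binding site.

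The end-foot and gap junction genes of astrocytes were spread like Gfap, though less widely. Aqp4, the water channel of the end-feet, was at 262.0, 254.4, 226.3 and 346.1 CPM in EB 1 to 4, against 350.5, 250.9 and 320.2 CPM in vehicle 1 to 3 (log2 −0.17, interval −0.53 to 0.19). Gjb6, a connexin, was at 78.2, 88.0, 77.3 and 134.4 CPM in EB mice, against 138.4, 78.8 and 115.4 CPM in vehicle mice (log2 −0.23, interval −0.88 to 0.42). In both genes EB 4 stood with vehicle 1 and 3, and vehicle 2 stood with the other EB mice. Gja1, the other main astrocytic connexin, was at 172.1, 162.5, 129.9 and 191.4 CPM in EB mice, against 205.3, 182.2 and 182.7 CPM in vehicle mice. It had the smallest p of the 12 astrocyte genes (log2 −0.21, interval −0.44 to 0.02, unadjusted p = 0.0683 by edgeR), and 11.4% of tested genes had a smaller p. EB 4 lay above vehicle 2 and vehicle 3, so its groups overlapped.

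Of the genes of glutamate handling, Slc1a2 had the smallest standard error of the 12 astrocyte genes (0.06 on the log2 scale). It was at 4535, 4061, 3704 and 4398 CPM in EB 1 to 4, against 4583, 4268 and 4461 CPM in vehicle 1 to 3 (log2 −0.09, interval −0.22 to 0.05). Slc1a3 averaged 643.5 ± 81.7 CPM in EB mice and 662.2 ± 78.5 CPM in vehicle mice, and Glul 459.7 ± 52.4 CPM in EB mice and 488.3 ± 51.3 CPM in vehicle mice. Their log2 changes were −0.04 and −0.09, and that of Slc1a3 was 0.0024 when counts were scaled by library totals alone. As a fold, the interval of Slc1a2 reached from 0.857 to 1.03. The ratio of Slc1a2 to Slc1a3 per kb was 2.27 to 2.57 in EB mice and 2.32 to 2.71 in vehicle mice.

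S100b, a calcium-binding protein, averaged 81.0 ± 6.51 CPM in EB mice and 89.0 ± 7.94 CPM in vehicle mice (log2 −0.13). Agt, the precursor of angiotensin that astrocytes make in the brain, averaged 95.1 ± 21.8 CPM in EB mice and 101.6 ± 12.9 CPM in vehicle mice (log2 −0.09), and Fgfr3, a growth factor receptor of astrocytes, 74.1 ± 11.99 CPM in EB mice and 83.7 ± 9.13 CPM in vehicle mice (log2 −0.17). Sox9, a transcription factor of the astrocyte lineage, was the only astrocyte gene with a positive estimate, 0.06, which turned to −0.09 without EB 4. Aldh1l1, an enzyme of folate metabolism, was at 12.6, 15.3, 15.5 and 19.6 CPM in EB 1 to 4, against 11.7, 19.95 and 19.5 CPM in vehicle 1 to 3. Its 2 lowest values were in EB 1 and vehicle 1, the libraries with the most mitochondrial ribosomal RNA (19.8% and 26.1%), and no other astrocyte gene was lowest in vehicle 1. The part of RNA composition in this was not tested.

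The astrocyte genes varied from mouse to mouse as a block. EB 3 was lowest in 11 of 12 of them, and the highest was EB 4 in 3 of 12, vehicle 1 in 6, vehicle 2 in 1 and vehicle 3 in 2. As the mean log2 deviation of the 12 genes from the average of the 7 mice, EB 1 to 4 stood at −0.09, −0.11, −0.30 and 0.26, against 0.13, −0.07 and 0.18 for vehicle 1 to 3. EB 4 was the highest of all 7 mice and the other 3 EB mice were the lowest, so that the spread within EB mice exceeded the distance between the groups. Without EB 4 all 12 estimates were negative with a median of −0.25, 6 of 12 had an unadjusted p under 0.05 by edgeR, against 8.89% of all genes in that fit, and 0 were called. With any other library left out, 0 or 1 of 12 had such a p. The summed level of the 12 genes was 6620, 6092, 5436 and 6949 CPM in EB mice, against 7021, 6248 and 6894 CPM in vehicle mice. Slc1a2 made up most of this sum, at 4174.5 CPM of a mean of 6274 in EB mice and 4437 of 6721 in vehicle mice.

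**Figure D4:**
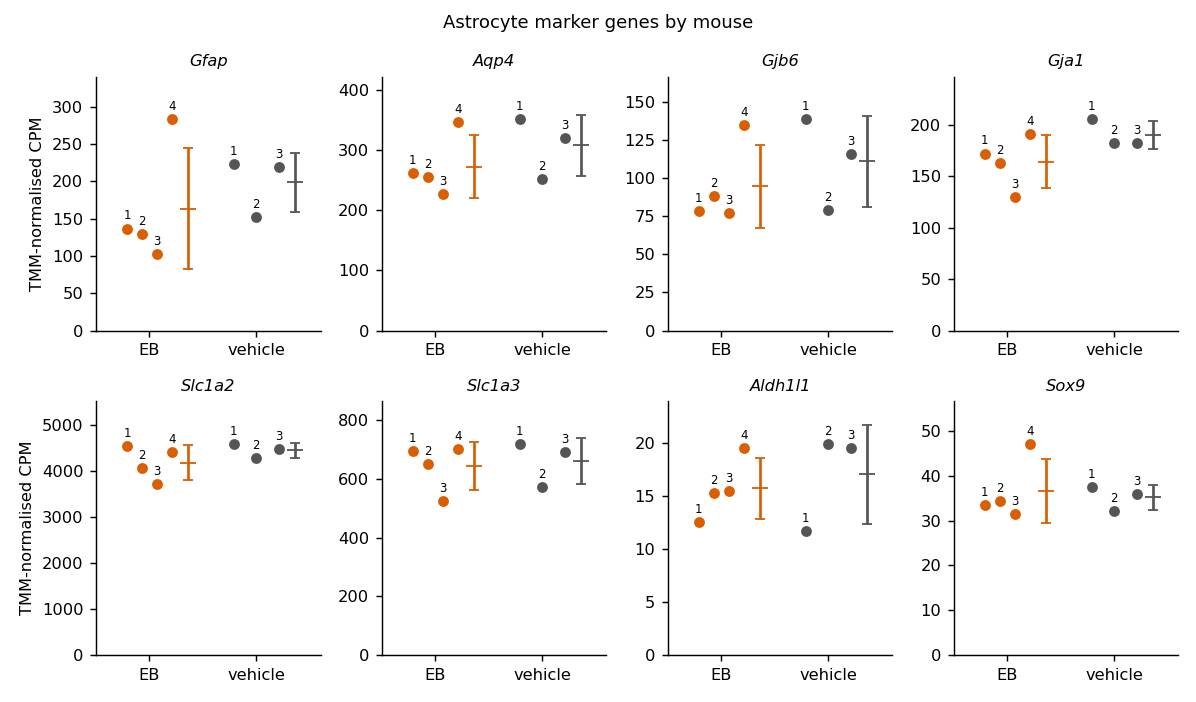
TMM-normalised CPM of 8 astrocyte marker genes in each EB mouse (left) and vehicle mouse (right), numbered by mouse, with the mean and SD of each group. EB 4 is the highest EB mouse in all panels except Slc1a2, EB 3 is the lowest in all except Aldh1l1, and in Gfap EB 4 stands at 283.4 above every vehicle mouse.

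Mbp and Cnp had the smallest spread within groups among the myelin genes, with a log2 SD of 0.08 and 0.10 against 0.20 to 0.47 in the other 6. Mbp, the protein that compacts myelin, was at 347.7, 309.9, 330.6 and 296.2 CPM in EB 1 to 4, against 324.4, 339.5 and 323.7 CPM in vehicle 1 to 3. Its log2 change was −0.04 ± 0.07 (SE; interval −0.18 to 0.11), and the highest and the lowest mouse were both EB mice. Cnp, a phosphodiesterase of the cytoplasmic channels of myelin, averaged 79.3 ± 6.21 CPM in EB mice and 80.6 ± 3.68 CPM in vehicle mice (log2 −0.02, interval −0.20 to 0.16). Mobp, a cytoplasmic protein of compact myelin, averaged 93.8 ± 13.1 CPM in EB mice and 101.2 ± 12.5 CPM in vehicle mice (log2 −0.11).

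Mog, a protein of the outer myelin surface, had the largest positive estimate of the 33 genes. It was at 11.8, 11.5, 16.1 and 12.6 CPM in EB 1 to 4, against 11.6, 11.8 and 9.16 CPM in vehicle 1 to 3 (log2 0.25 ± 0.16, SE; interval −0.10 to 0.60; adjusted p = 0.728 by edgeR). EB 3 was highest and vehicle 3 lowest, while EB 2 lay between vehicle mice, and the estimate was 0.14 without EB 3. Mag, an adhesion protein on the axonal side of myelin, averaged 5.37 ± 0.8997 CPM in EB mice and 5.38 ± 1.03 CPM in vehicle mice. Opalin was at 2.97, 2.96, 1.69 and 1.32 CPM in EB mice, against 2.64, 1.81 and 1.85 CPM in vehicle mice, with counts of 32 to 96 per library. Its mice did not sort by treatment, since EB 1 and EB 2 were highest and EB 3 and EB 4 lowest.

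Ermn, a cytoskeletal protein of mature oligodendrocytes, averaged 24.6 ± 2.90 CPM in EB mice and 27.5 ± 5.11 CPM in vehicle mice (log2 −0.16). Cldn11, the tight junction protein of myelin, averaged 12.2 ± 1.11 CPM in EB mice and 13.6 ± 3.15 CPM in vehicle mice (log2 −0.15). In both, vehicle 1 was highest, and without vehicle 1 the estimates were at −0.0026 for Ermn and 0.04 for Cldn11. EB 4 was lowest in 5 of the 8 oligodendrocyte genes, with a mean log2 deviation of −0.20, against 0.26 over the 12 astrocyte genes. The wider lists did not share this low place. EB 4 stood at 0.01 over 27 other oligodendrocyte genes, being highest in 4 and lowest in 4. It stood at 0.18 over the 3 lineage and precursor members and at 0.20 over 16 other precursor genes. Summed over the 8 oligodendrocyte members the level was 588.2, 545.3, 566.8 and 506.2 CPM in EB mice, against 559.6, 586.0 and 565.6 CPM in vehicle mice. Mbp made up most of this sum, at 321.1 CPM of a mean of 551.6 in EB mice and 329.2 of 570.4 in vehicle mice.

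Sox10, the transcription factor that directs the lineage, averaged 6.11 ± 1.45 CPM in EB mice and 6.05 ± 1.14 CPM in vehicle mice (log2 −0.01, interval −0.50 to 0.48). Pdgfra, the growth factor receptor of precursor cells, averaged 78.3 ± 8.21 CPM in EB mice and 82.0 ± 6.14 CPM in vehicle mice (log2 −0.07). Vcan, a proteoglycan of the matrix around precursors, averaged 97.0 ± 8.09 CPM in EB mice and 100.7 ± 7.83 CPM in vehicle mice (log2 −0.05). The intervals of Pdgfra and Vcan reached from −0.27 to 0.14 and from −0.24 to 0.13. The median of the 11 lineage genes, −0.04, ran from −0.08 without vehicle 3 to −0.01 without vehicle 1.

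A wider set of 192 glial genes and their partners, in 10 lists, was looked at in the same fit. Of the 177 tested, 1 rose and 0 fell by edgeR's quasi-likelihood test, a share called of 0.565% against 0.952% of all tested genes. An unadjusted p under 0.05 was found for 12 of 177, against 9.04% of all tested genes. DESeq2 and limma-voom called the same gene and no other. There were 122 negative and 55 positive estimates with a median of −0.08. Over all tested genes 9481 were negative and 8906 positive, with a median of −0.01. The lists covered other astrocyte, reactive astrocyte, other homeostatic microglial, activated microglial, other oligodendrocyte, newly formed oligodendrocyte and precursor genes, the lipid supply of myelin, glial ligands with their receptors, and complement. From each list without a called gene, the gene with the smallest p is named.

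The gene that rose was Dhcr7, which encodes a reductase of the last steps of cholesterol synthesis, and cholesterol is a main lipid of myelin. It was at 47.7, 42.9, 45.6 and 55.8 CPM in EB 1 to 4, against 26.0, 28.0 and 24.2 CPM in vehicle 1 to 3. All EB mice were far above all vehicle mice, with a log2 change of 0.88 ± 0.11 (SE) and an adjusted p of 0.00125 by edgeR. The other 16 genes of lipid supply were not called, and the median of the 17 was 0.04. Dhcr7 is expressed in neurons as well as in glia, and the cells behind the change were not identified here.

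Among other astrocyte genes, 0 of 30 were called and 27 of 30 were negative, with a median of −0.10, and EB 3 was again lowest, in 23 of 30. The smallest p belonged to Slc6a9, a glycine transporter, at 8.91 ± 1.92 CPM in EB mice and 13.4 ± 1.93 CPM in vehicle mice (log2 −0.57, adjusted p = 0.251 by edgeR). Reactive astrocyte genes had 0 of 15 called and 10 of 15 negative, and Ggta1, a sugar transferase, had the smallest p (log2 −0.59, adjusted p = 0.285 by edgeR). EB 4 and vehicle 1 were highest in 13 of these 15 genes between them. This was not particular to reactive astrocyte genes. By mean log2 deviation both mice also stood highest over the microglial activation, complement, border macrophage, and mural and fibroblast lists.

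Other homeostatic microglial genes had 0 of 24 called and 18 of 24 negative. P2ry13, the neighbouring gene of the same receptor family as P2ry12, had the smallest p of them, at 5.33, 4.28, 2.70 and 3.498 CPM in EB 1 to 4, against 5.52, 5.73 and 5.15 CPM in vehicle 1 to 3. EB 1 lay above vehicle 3, so the groups overlapped (log2 −0.45, interval −0.96 to 0.06, adjusted p = 0.621 by edgeR). Activation genes had 0 of 12 called and 9 of 12 negative, with a median of −0.21. Cst7, a protease inhibitor of activated microglia, had the smallest p, with 4, 11, 12 and 25 counts in EB 1 to 4, against 0, 0 and 3 counts in vehicle 1 to 3 (adjusted p = 0.316 by edgeR). H2-Aa, an antigen-presenting protein, had nearly the same p in the other direction, with 30, 23, 18 and 21 counts in EB mice, against 75, 86 and 13 counts in vehicle mice (adjusted p = 0.322 by edgeR). Complement genes beside C1q had 0 of 10 called, with C2, a serine protease of the pathway, at 2.58 ± 0.469 CPM in EB mice and 4.35 ± 0.844 CPM in vehicle mice (log2 −0.73, adjusted p = 0.325 by edgeR).

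Other oligodendrocyte genes had 0 of 27 called and 21 of 27 negative. Fa2h, the fatty acid hydroxylase of myelin galactolipids, was at 9.54, 8.75, 7.67 and 8.15 CPM in EB 1 to 4, against 10.1, 13.4 and 13.5 CPM in vehicle 1 to 3 (log2 −0.53, interval −0.87 to −0.18, adjusted p = 0.215 by edgeR). Newly formed oligodendrocyte genes (0 of 10 called) and precursor genes (0 of 16) gave smallest p values to Gpr17, a receptor of cells entering differentiation (log2 −0.24), and Matn4, a matrix protein (log2 0.82, adjusted p = 0.658 by edgeR). Glial ligands and receptor partners had 0 of 18 called, and Fgf9, a growth factor, was at 10.8 ± 1.17 CPM in EB mice and 14.6 ± 0.347 CPM in vehicle mice (log2 −0.43, adjusted p = 0.258 by edgeR).

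Mural and fibroblast markers stood further apart between mice than the astrocyte members, with mean log2 deviations from −0.90 to 1.33, whereas neuronal markers ran from −0.10 to 0.15. Mural and fibroblast genes summed to 222.1, 258.4, 359.4 and 503.5 CPM in EB 1 to 4, against 839.8, 214.8 and 327.3 CPM in vehicle 1 to 3, and vehicle 1 was highest in 15 of 17. Endothelial genes summed to 164.1, 174.0, 167.2 and 222.0 CPM in EB mice, against 264.1, 192.4 and 218.9 CPM in vehicle mice. Of 15 endothelial genes, 13 were negative and 2 positive, with a median of −0.32. By edgeR 0 were called and 7 (46.7%) had an unadjusted p under 0.05, against 9.04% of all tested genes. Of these 7, Kdr alone had a positive estimate (log2 0.49). DESeq2 called Abcb1a and Flt1, at a rate of 1.95% over all genes. Flt1, a vascular growth factor receptor, had a log2 change of −0.48. The smallest p in other lists went to F13a1 among border macrophage genes (log2 0.39), Elavl4 among neuronal genes (−0.12), Kcnj8 among mural and fibroblast genes (−0.86), Pomc among pituitary genes (0.67) and Hbb-bs among blood genes (−0.80), and none of them was called by edgeR. Border macrophages also express several of the microglial members. Vehicle 1 was highest in 5 of their 7 tested genes. All 9 genes listed for these macrophages summed to 13.1 to 26.4 CPM in EB mice and 10.2 to 38.5 CPM in vehicle mice. The part of these cells in the glial values was not tested.

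**Figure D5:**
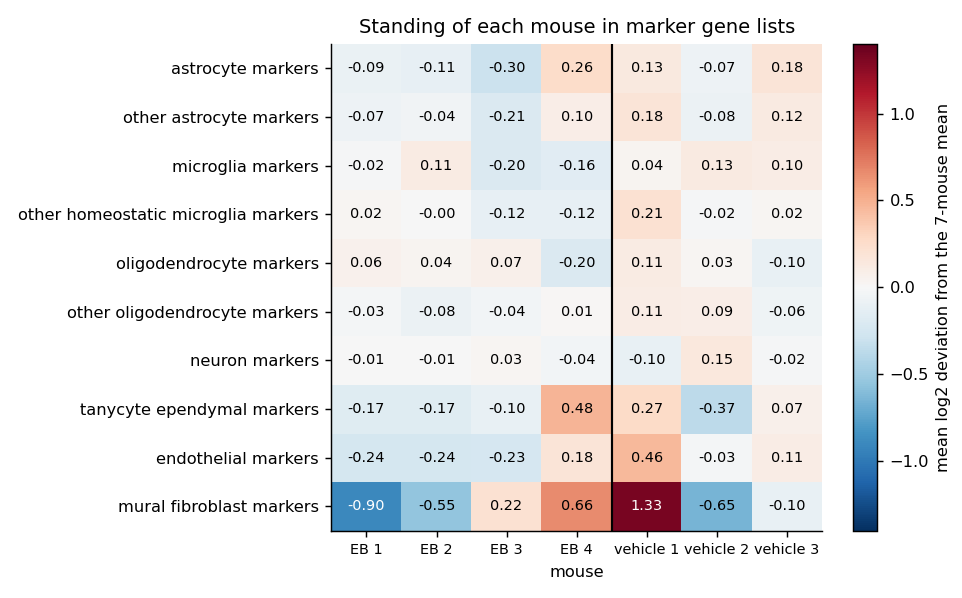
Mean log2 deviation of each mouse from the 7-mouse mean over the genes of a list (rows), for EB mice (left of the line) and vehicle mice (right). Astrocyte markers range from −0.30 in EB 3 to 0.26 in EB 4, a spread within the EB mice, while mural and fibroblast markers reach 1.33 in vehicle 1.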

How the data were processed

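RNA was measured in 7 libraries, each from the hand-dissected VMHvl of a single mouse. Per the labels, library preparation used a Trio kit of Tecan/Nugen and 15 ng of RNA. The deposited values are raw counts per gene, whole and not normalised. Reads were processed with HISAT2, HTSeq and DESeq2 on mm10, per the submitters' processing notes; versions, annotation, strand and the treatment of multiply mapped reads were not given in the sources used here. Without strand, reads of overlapping genes on both strands cannot be told apart: antisense genes cover 10.5% of the exon length of Aldh1l1, 9.93% of Fgfr3 and 5.20% of Pdgfra, and Galnt5 covers 6.52% of Ermn.

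Genes were kept by filterByExpr (minimum count 10), which left 18387 of 31222 genes with a count. The quasi-likelihood test of edgeR 4.0.16 (TMM scaling, robust, no covariate) was run in R 4.3.3, with Benjamini-Hochberg adjustment over all tested genes at 0.05, and checked on simulated data. Standard errors are the absolute log2 change over the square root of F, and intervals are 95%. Alternatives were DESeq2 1.42.0, limma-voom 3.58.1 with and without sample weights, other scalings, filters and quasi-likelihood fits, removal of mitochondrial, haemoglobin and rRNA genes, each library left out in turn, and vehicle 1 and EB 4 left out together. The quasi-likelihood fit in the style of edgeR 3 was added after seeing the data. Replicate pairs differed by more than sampling noise (chi-square per degree of freedom 17.0 to 166), so no library was counted as a copy.

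The members and gene lists were chosen with earlier results of these data known, so no list was tested as a set. All 33 members are described, and from the other lists every called gene, or otherwise the gene with the smallest p, except for a result that is not reported here; Pgr is the check of the treatment. Med12l, Esr1, Nr5a1, Slc17a6, Abcb1a, Kdr and H2-Aa were named outside that rule, after their values were seen. Positions and exon lengths come from the GENCODE annotation of GRCm38 (mm10). Python 3.11.15 and matplotlib 3.10.9 drew the figures.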

Additional observations from a re-analysis of the deposited data

Results flagged for a closer look

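The 4 EB mice were examined for a mouse that stood apart, in each member gene and in the summed level of each marker list, by its gap to the nearest other mouse over the whole range (Dixon's test at its 95% critical value). Of 55 such sets of values, 3 stood out, and chance alone flags about 1 in 20. Reactive astrocyte markers summed to 354.9 CPM in EB 4, against 231.9, 242.2 and 234.5 CPM in EB 1 to 3. Vehicle 1 to 3 had 405.7, 218.1 and 272.7 CPM, so vehicle 1 stood above EB 4. Tanycyte and ependymal markers summed to 187.7 CPM in EB 4, against 89.5, 91.5 and 103 CPM in EB 1 to 3. Other oligodendrocyte precursor markers summed to 1428 CPM in EB 3, against 1635, 1623 and 1655 CPM in EB 1, EB 2 and EB 4. Groups of 3 vehicle mice were not examined in this way.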

How the results depend on the processing

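No paired analysis was possible because no label ties mice of the groups to each other. The count of called members was 0 under every setting except DESeq2, which gave 1. Over all genes, 175 calls became 359 with DESeq2, 375 without the filter on low counts, and 102 (without vehicle 3) to 152 (without vehicle 1) with a library left out. P2ry12 ran from −0.48 to −0.36 in all settings, with an adjusted p from 0.0169 (DESeq2) to 0.551 (library totals alone). Of 627 recomputed values of single genes, 587 kept their direction and their side of the threshold, 39 changed sign over 14 genes, and 19 genes never did; the cause was not tested. With library totals alone, Slc1a3 was at 0.0024, Mag at 0.019, Cnp at 0.0141 and Sox10 at 0.0413. With sample weights, Sox9 was at −0.0198 and Mag at 0.0665, and with plain limma-voom Siglech was at −0.0062. Sox10 was at 0.0062 with DESeq2, 0.0083 with the edgeR 3 style fit and 0.0018 with a minimum count of 50. Without vehicle 1 and EB 4 together, Sox9 was at −0.033, Mag at 0.0042, Ermn at 0.0539 and Cldn11 at 0.0891. With 1 library left out at a time, ranges that crossed 0 were −0.3399 to 0.0118 for Aldh1l1, −0.136 to 0.0445 for Slc1a3, −0.0864 to 0.123 for Sox9, −0.2572 to 0.0064 for Agt, −0.5749 to 0.0755 for Trem2 and −0.1241 to 0.1504 for Siglech. They were −0.0756 to 0.0011 for Mbp, −0.1435 to 0.1387 for Mag, −0.0518 to 0.0312 for Cnp, −0.0396 to 0.338 for Opalin, −0.2759 to 0.0396 for Cldn11, −0.1479 to 0.1355 for Sox10 and −0.107 to 0.0035 for Vcan. Class medians stayed negative in all settings tried. Depth limits Trem2 and Opalin most, with under 100 counts in every library.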
